A study of Mus musculus with 4 samples.

Results

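H3K27ac peaks found when both tissue pools were read together, but missing from the replicated list, numbered 20544 of the 102643 peaks of the pooled list and are called absent peaks here. They were chosen by overlap alone: a peak of the pooled list counted when no replicated peak covered it by 1 bp or more, and these made up 20.0% of that list. The remaining 82099 pooled-list peaks (the others) served as the comparison, and each was identical to a replicated peak in start, end and signal, so no peak was partly covered. The closest of the 20544 lay 77 bp from a replicated peak, among them a 564 bp peak in an exon of Adgrb3, an adhesion receptor gene (chr1:25226228-25226791, GRCm38), while every peak on the other side of the rule was a replicated peak itself. The smallest gap from the others to another replicated peak was also 77 bp.

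The tissue was the hippocampal layer of male B6CASTF1/J mice aged 2 months, F1 hybrids of C57BL/6 and CAST parents. The 4 samples formed 1 group with no treated arm: pools C and D held 7 biosamples each, and each pool gave 2 technical replicates whose fragments spanned 200 to 600 bp. The deposited data were 4 peak lists, namely the replicated list (88930 peaks), the pooled list, the pool C list (94836) and the pool D list (63623). The files used here give no read totals, so depth is unknown, and the 95% Wilson intervals given below cover the counting of peaks only. In bulk tissue, fewer cells of a type and less of the mark per cell cannot be told apart.

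Acetylation of histone H3 at lysine 27 (H3K27ac) is laid down by the CBP family of acetyltransferases at active promoters and enhancers. Hippocampal tissue mixes neurons with glia and vessel cells, and an enhancer can carry the mark in one cell type and lack it in another. A pseudoreplicated list, in general usage, keeps peaks found again when the reads of a sample are split at random, while a replicated list asks that a peak be found in separate biological replicates.

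The sequences below are 200-base windows at the summits of 8 such peaks, read from the plus strand of GRCm38 (RefSeq). The first 4 lie at promoters of microglial genes with no replicated promoter peak, and Notch3 gives the same case for a mural cell gene. Aen has the peak of highest signal, Celsr2 has a peak covered by the pool D list and not by the pool C list, and the last is the autosomal peak farthest from a replicated one. Capitals mark letters that match a searched motif: TGANTCA for AP-1, CAGCTG for the E-box and TTGGCA for the NFI element, on either strand.
C1qa, chr4:136898275-136898474: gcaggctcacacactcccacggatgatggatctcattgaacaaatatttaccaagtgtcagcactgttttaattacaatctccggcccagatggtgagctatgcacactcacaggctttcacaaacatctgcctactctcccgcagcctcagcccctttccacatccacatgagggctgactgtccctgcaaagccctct
C1qb, chr4:136885536-136885735: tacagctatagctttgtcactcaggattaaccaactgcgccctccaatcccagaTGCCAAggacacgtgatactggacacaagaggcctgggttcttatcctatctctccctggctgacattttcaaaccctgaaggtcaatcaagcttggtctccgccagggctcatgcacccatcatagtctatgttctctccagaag
Ctss, chr3:95527021-95527220: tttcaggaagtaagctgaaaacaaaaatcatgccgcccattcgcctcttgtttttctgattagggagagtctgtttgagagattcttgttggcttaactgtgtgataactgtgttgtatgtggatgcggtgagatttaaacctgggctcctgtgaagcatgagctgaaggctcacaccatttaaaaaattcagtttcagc
Siglech, chr7:55768724-55768923: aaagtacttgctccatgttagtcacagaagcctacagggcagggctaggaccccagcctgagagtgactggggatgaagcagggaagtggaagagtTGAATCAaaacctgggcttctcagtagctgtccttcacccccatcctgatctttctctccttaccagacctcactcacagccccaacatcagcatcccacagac
Notch3, chr17:32166287-32166486: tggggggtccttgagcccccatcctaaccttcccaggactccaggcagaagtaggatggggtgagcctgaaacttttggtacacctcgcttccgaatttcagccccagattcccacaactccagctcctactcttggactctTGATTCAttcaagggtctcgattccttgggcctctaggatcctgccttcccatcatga
Aen, chr7:78895964-78896163: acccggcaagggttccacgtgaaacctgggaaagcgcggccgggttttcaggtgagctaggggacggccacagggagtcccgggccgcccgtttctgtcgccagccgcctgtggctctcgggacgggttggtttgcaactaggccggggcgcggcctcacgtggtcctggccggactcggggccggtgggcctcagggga
Celsr2, chr3:108401510-108401709: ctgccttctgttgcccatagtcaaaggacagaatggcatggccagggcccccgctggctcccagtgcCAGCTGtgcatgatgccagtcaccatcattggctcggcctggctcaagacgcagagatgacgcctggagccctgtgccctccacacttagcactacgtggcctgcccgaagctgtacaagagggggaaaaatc
Nearest to Csmd3, chr15:47298022-47298221: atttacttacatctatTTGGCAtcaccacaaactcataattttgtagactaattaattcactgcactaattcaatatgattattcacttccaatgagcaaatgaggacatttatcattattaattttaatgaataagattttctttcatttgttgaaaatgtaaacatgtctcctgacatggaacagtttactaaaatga
The Aen window had a GC content of 70.5% with 20 CpG dinucleotides, against 27.0% and 0 CpG in the window nearest to Csmd3. The windows at C1qa, C1qb, Ctss, Siglech and Notch3 had 42.0 to 54.0% GC and at most 3 CpG each.

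Most of these peaks were backed by pool C and very few by pool D. Of the 20544, 14429 (70.2%, interval 69.6 to 70.9) overlapped the pool C list by 1 bp or more, compared with 73594 (89.6%) of the other pooled-list peaks and 85.8% of the pooled list as a whole. Overlap with the pool D list was found for 181 (0.881%, 0.762 to 1.02), compared with 49241 (60.0%) of the other pooled-list peaks and 48.1% of the whole pooled list. Pool D alone backed 145 and both pools backed 36, while 5970 (29.1%) overlapped neither pool list, against 7264 (8.85%) of the other pooled-list peaks. Where a pool C peak was present it covered the peak almost fully, with a median of 99.6% of its length, and where a pool D peak was present the median was 83.7%. The replicated and pooled lists come from the same reads as the pool lists, so pool overlap, signal and width are given as descriptions and no test was made on them.

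**Figure D1:**
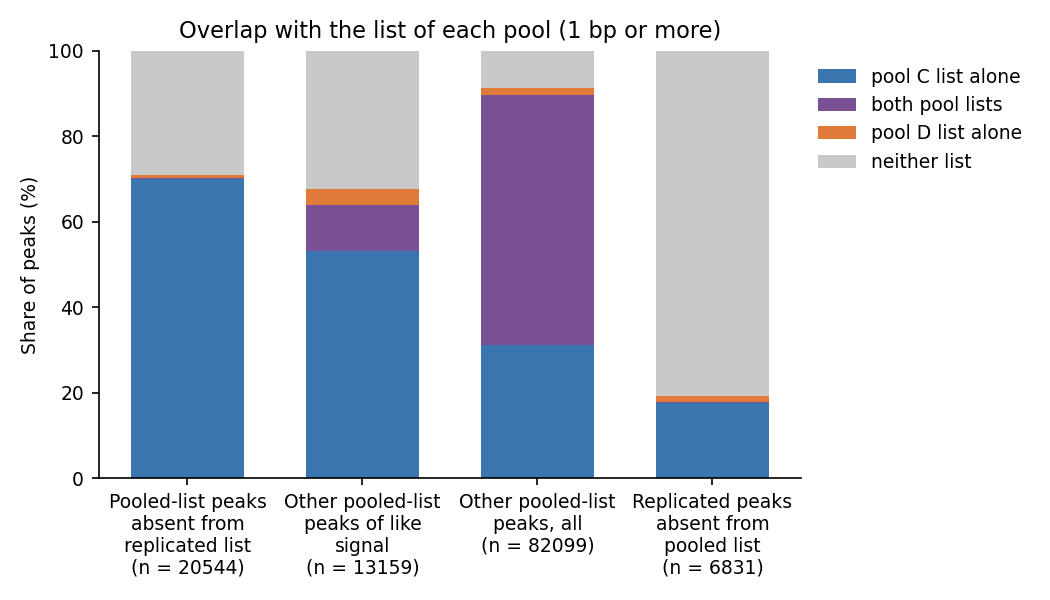
Share of peaks (%) that overlap the pool C list alone, both pool lists, the pool D list alone or neither, as stacked bars for 4 sets of peaks. The bar of pooled-list peaks absent from the replicated list is 70.1% pool C alone and 0.175% both pools, while 58.5% of all other pooled-list peaks lie in both.

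Counts from the side of the pool lists show how far the choice sets the pool D share. Of the pool C peaks, 19619 (20.7%) had no replicated peak over them, and 12635 of these (64.4%) overlapped one of the 20544 peaks. Of the pool D peaks, 313 (0.492%) had no replicated peak over them, and 143 of these (45.7%) overlapped one of the 20544 peaks. Peaks chosen for missing the replicated list could thus seldom overlap pool D, so their low pool D share largely restates the choice. The pool D list is the shorter of the pool lists, and the part of its length in these shares was not tested.

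Signal was low. The deposited signal had a median of 2.892 (range 1.603 to 6.233) in the 20544 peaks and 4.476 (up to 51.47) in the other pooled-list peaks. The median width was 434 bp (175 to 2952) in the absent peaks and 1028 bp in the others, and a −log10 q under 5 was given to 10287 (50.1%) of the absent peaks and 6496 (7.91%) of the others. The peaks absent from the replicated list covered 0.366% of the genome.

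Their share of the pooled list shrank with signal. They were 66.3% of pooled-list peaks with a signal below 2, 53.5% of those from 2.5 to 3, 14.5% of those from 3.5 to 4 and 3.7% of those from 4 to 5. From 5 to 6 there were 29 such peaks among 7971, and at 6 or above there was 1 among 26303. Replicated peaks of equally low signal were present in each of these classes. Pool C overlap moved with signal in both sets: in the class from 2.5 to 3 it was 61.7% for the peaks absent from the replicated list and 57.5% for the other pooled-list peaks, and in the class from 3.5 to 4 it was 94.5% for the absent peaks and 91.0% for the others. Pool D overlap was lower in the absent peaks in every class below 6. The choice of peaks largely fixed this, as only 0.492% of pool D peaks lacked a replicated peak. In the class from 3.5 to 4 pool D overlap was 0.508% for the absent peaks and 33.8% for the other pooled-list peaks. In the class from 4 to 5 it was 0.173% for the absent peaks and 59.9% for the others.

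**Figure D2:**
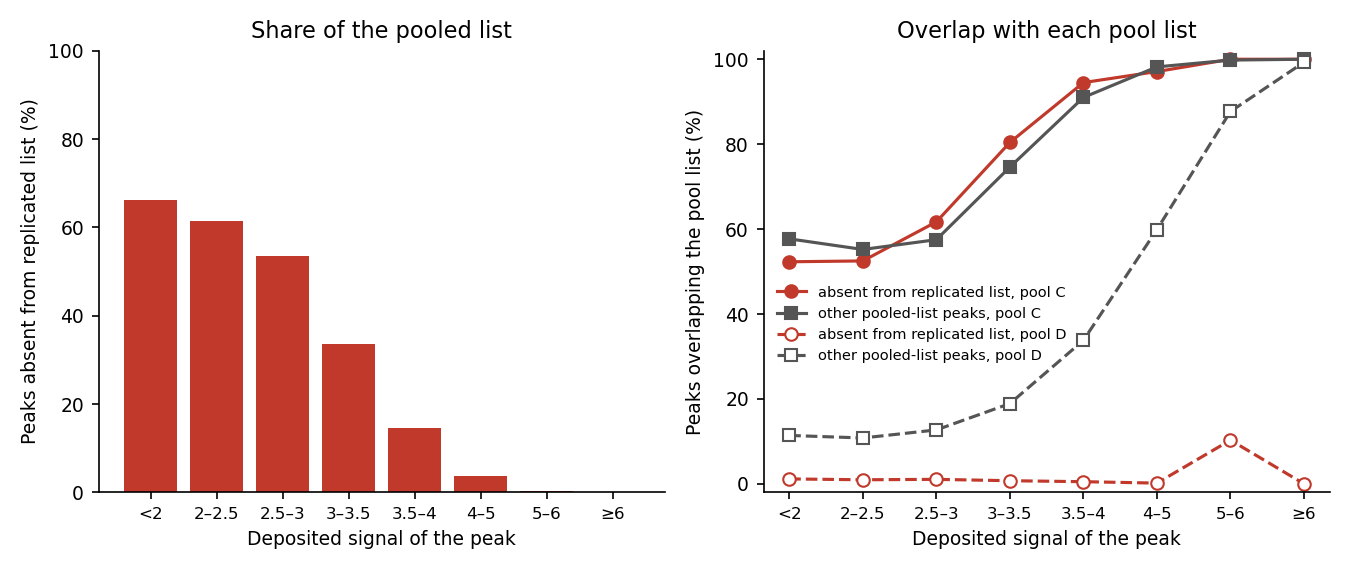
Left, share (%) of pooled-list peaks absent from the replicated list in 8 classes of deposited signal; right, share (%) of the absent peaks (red) and of the other pooled-list peaks (grey) that overlap the pool C list (filled, solid) or the pool D list (open, dashed). The pool C lines run together, while the pool D line of the absent peaks stays at or below 10.3% and that of the other peaks climbs to 99.3%.

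A set of 13159 other pooled-list peaks whose signal lay within the interquartile range of the absent peaks (2.615 to 3.239) was closer to them. Pool C overlap was 70.2% in the 20544 peaks and 63.8% in that set, overlap with neither list was 29.1% in the 20544 and 32.3% in the set, and the median width was 434 bp in the 20544 and 586 bp in the set. Pool D overlap was 0.881% in the 20544 and 14.6% in the set. The opposite set, 6831 replicated peaks absent from the pooled list, overlapped pool C in 17.8%, pool D in 1.64% and neither list in 80.8%, with a median width of 369 bp.

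Strength and width also differed within the 20544 by the list that backed them. Those in pool C alone had a median signal of 3.007 and a width of 470 bp, those in both pools 2.95 and 610.5 bp, those in pool D alone 2.776 and 360 bp, and those in neither list 2.671 and 360 bp.

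The few peaks backed by pool D were picked out after their values were seen. The peak with the highest signal among those at least 50% covered by pool D and outside the pool C list lay within the promoter window of Celsr2, an atypical cadherin gene of neuronal polarity (signal 3.725, 92.2% covered by pool D, 118 bp from a replicated peak). Others of this kind lay in introns of Soga3 (3.701), Phactr3, a regulator of phosphatase and actin (3.586), and Kif6, a kinesin (3.47). All of these signals were below the pooled-list median of 3.933.

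The distances of these peaks to replicated peaks were near those of other pooled-list peaks of like signal. The median distance to the closest replicated peak was 976 bp (quartiles 207 and 5706.8; up to 1034932), against 718 bp from the other pooled-list peaks to the closest other replicated peak and 1029 bp in the set of like signal. Within 200 bp lay 4982 (24.3%) of the absent peaks and 25599 (31.2%) of the other pooled-list peaks, and within 1 kb 10339 (50.3%) of the absent peaks and 53.3% of the others. More than 10 kb away lay 3603 (17.5%) of the absent peaks and 17.3% of the others, and more than 100 kb away 316 (1.54%) of the absent peaks and 968 (1.18%) of the others. In all, 8211 (40.0%) of the absent peaks sat in the gaps between replicated peaks up to 10 kb apart. The share of the genome in such gaps was not measured and the others were not counted this way, so this share has no comparison.

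**Figure D3:**
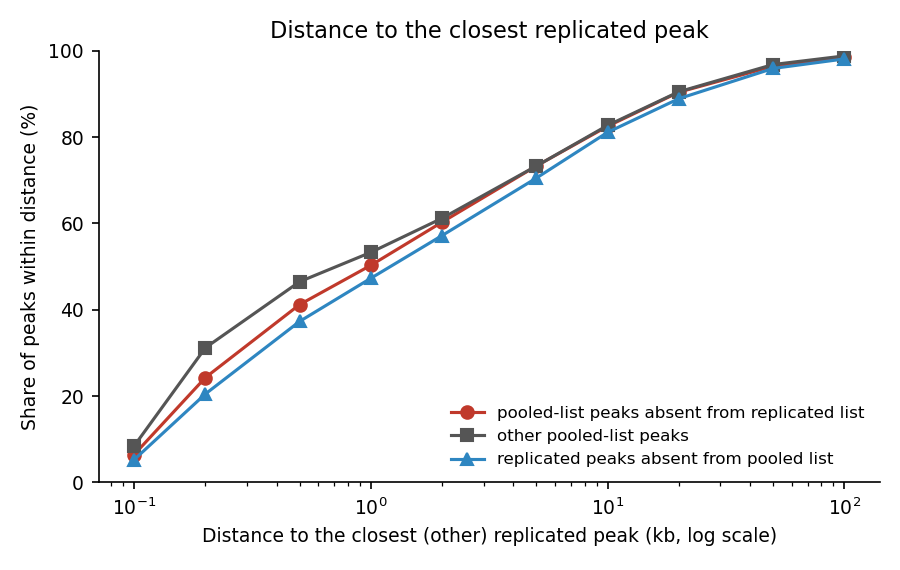
Cumulative share of peaks (%) by distance to the closest replicated peak (kb, log scale), for pooled-list peaks absent from the replicated list, for the other pooled-list peaks (distance to the closest other replicated peak) and for replicated peaks absent from the pooled list. Within 1 kb the 3 sets reach 50.3%, 53.3% and 47.3%, and by 10 kb they reach 82.5%, 82.7% and 81.1%.

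Distance varied with support and with place. The median was 798 bp for peaks in pool C alone, 1462.5 bp for those in neither list and 101.5 bp for the 36 in both. By place it was 542 bp for promoter peaks, 967 bp in exons, 931 bp in introns and 1713.5 bp between genes. For the other pooled-list peaks, to the closest other replicated peak, it was 808 bp at promoters, 629 bp in exons, 560 bp in introns and 1467.5 bp between genes. The closest replicated peak was the stronger of the pair in 83.1% of all cases and in 83.3% of those over 10 kb apart. Its median signal was 4.05, against 4.28 in the whole replicated list and 2.892 in the absent peaks. It overlapped pool D in 52.2% of cases, against 55.5% of the replicated list.

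With neighbours up to 10 kb apart joined, the absent peaks formed 15058 runs, of which 11435 were single peaks, and 9109 peaks (44.3%) lay in a run of 2 or more. Runs of the others were not analysed here. The longest run, 17 peaks over 68995 bp with 25 replicated peaks among them, lay over Gria1, which encodes an AMPA glutamate receptor subunit (chr11:57027806-57096800). Runs of 12 at Mpped1 and 11 at Klhl2 followed. These genes were named after their values were seen.

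The peaks lay in introns more often, and at promoters less often, than the other pooled-list peaks. By GENCODE M21 a peak within 1 kb of any transcription start site (TSS) was a promoter peak, and 2479 of the 20544 (12.1%, 11.6 to 12.5) were, against 22878 (27.9%) of the other pooled-list peaks and 24.7% of the whole pooled list. Introns held 11747 (57.2%) of the absent peaks and 34722 (42.3%) of the others. Exons held 1924 (9.37%) of the absent peaks and 7707 (9.39%) of the others, and intergenic stretches held 4394 (21.4%) of the absent peaks and 16792 (20.5%) of the others. Among other pooled-list peaks of like signal the promoter share was 10.9% and the intron share 57.9%, near those of the absent peaks. The median distance to a coding TSS was 16.7 kb for the absent peaks and 12.4 kb for the others.

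Promoter peaks in the 20544 overlapped the pool C list in 74.8% and the pool D list in 0.847%, against 96.2% and 81.4% of the other promoter peaks. The choice of the absent peaks largely sets their pool D share. A CpG-rich 300 bp summit window (observed over expected of 0.6 or more) was found for 303 (12.2%) of them and for 11210 (49.0%) of the other promoter peaks. Over all places such windows made up 2.76% of the absent peaks and 15.5% of the others, and median GC was 47.0% in the absent peaks and 48.7% in the others. CpG content was not compared at like signal. The median signal was 3.005 in the absent promoter peaks and 8.654 in the other promoter peaks. On the autosomes the share of pooled-list peaks absent from the replicated list ran between 17.6% and 21.4%. On X it was 21.8% (347 peaks, 0 of them in pool D, against 0.881% of all absent peaks).

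Most of the 15 absent peaks of highest signal lay at promoters, and 8 of the 15 were CpG-rich, with a median GC of 60.0% over the 15. The highest lay over a TSS of Aen, an apoptosis-enhancing nuclease gene (chr7:78895906-78896596, signal 6.233, −log10 q 25.5), 127 bp from a replicated peak and fully within pool C. Znrf3, which encodes a ubiquitin ligase that clears Wnt receptors, had a promoter peak with a signal of 5.899. Bves (5.783), Kcnh2, the hERG potassium channel gene (5.668), Syt11, a synaptotagmin gene (5.552), and Npepl1 (5.436) followed at promoters. Promoter peaks at Pxk (5.321), Arhgdig (5.321), Pcdh12, a protocadherin gene of endothelium (5.296), and Gm26739 (5.436) also ranked here. Gm26739 was the one among the 15 with pool D cover, at 26.9% of its length. Introns of Sgms1, a sphingomyelin synthase gene (5.342), and Ptk2b, a tyrosine kinase gene (5.231), held a peak each. Peaks between genes lay nearest to Gm22798 (5.668) and to Gm37719 (5.423).

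The 10 widest peaks ran from 1713 to 2952 bp and none overlapped pool D, against 0.881% of all absent peaks. The widest lay in an intron of Cttnbp2nl (chr3:105021830-105024781), followed by introns of Ece1, which makes endothelin (2025 bp), and Map7d1, a microtubule-binding protein gene (1952 bp). Rapgef4, Frmd4a, Zhx3 and Abr each had 1 in an intron, Stambpl1 had a promoter peak (1820 bp), and a peak over Hps4 (1740 bp) lay 256 bp from a TSS of Gm6583. The tenth lay near Osbpl2. Their signals, from 2.17 to 3.586, were no higher than those of many narrower peaks.

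Of the 316 absent peaks more than 100 kb from a replicated peak, 170 (53.8%) were intergenic, 94 lay in introns, 11 in exons and 41 at promoters. Of the 968 other pooled-list peaks that far from another replicated peak, 460 were intergenic, 175 lay in introns, 24 in exons and 309 at promoters. The farthest on the autosomes lay 954200 bp away, in neither pool list, with Gm7508 as nearest TSS and Csmd3, a large brain gene of the CUB and sushi family, as nearest coding gene. Peaks nearest to the homeobox genes Irx1 and Irx2 lay 843295 and 716426 bp away, and those nearest to Nxph1, a neurexin ligand gene, and Dpp10, a potassium channel partner gene, 788151 and 759310 bp. Coding genes nearest to the others were Fam181b, 4931408C20Rik for a pair of peaks beside n-R5s209, Zfp804a and Cdh20. The 316 peaks had a median GC of 43.0% and overlapped pool C in 60.8%.

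As nearest coding TSS the 20544 peaks named 7363 genes, of which 3468 were nearest to 1 peak and 1101 to 5 or more. Celf2, an RNA-binding splicing regulator, had the most (73), then Rbfox1 (51) and the scaffold gene Dlg2 (50). They are long genes and were named after their values were seen. Replicated peaks were also many there: by gene body or within 10 kb, Celf2 had 62 absent and 225 replicated peaks. Rbfox1 had 47 and 168, and Dlg2 50 and 151. Over all coding genes the absent peaks were 17.8% of such linked peaks.

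At promoters, 1657 of 21938 coding genes (7.55%) had such a peak within 1 kb of a TSS, and for 260 (1.19%) no replicated peak lay there. A replicated promoter peak was present for 13524 genes (61.6%). Of the 260, 211 (81.2%) had a pool C promoter peak, 1 had a pool D peak and 49 had neither. At the 260 genes 44.6% of the peaks lay over the TSS itself and 17.0% upstream, while at genes with a replicated promoter peak 23.4% lay over it and 41.5% upstream. Absent peaks were chosen to overlap no replicated peak, so a replicated promoter peak limits where they can lie. The part of this choice in the contrast was not tested.

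Ranked by signal, the first of the 260 were Bves, which encodes a Popeye-domain membrane protein (5.783, chr10:45335384-45335661), Arhgdig (5.321), Pcdh12 (5.296) and Nudt10 (5.089). Then came Gsdmd, the pore-forming gasdermin of pyroptosis (4.627), Nudt11 (4.627), Sp5, a transcription factor gene induced by Wnt (4.605), Plce1, a phospholipase C gene (4.511), Pot1b, a telomere-binding protein gene (4.511), and Nxpe2 (4.508). None of these 10 peaks overlapped pool D, against 0.881% of all absent peaks, a share that the choice largely sets. Nudt10 and Nudt11 are near-identical neighbours on X, so their values are uncertain.

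Glial and vascular marker genes were looked up in 8 lists with 131 distinct genes, of which 75 (57.3%) had such a peak in the gene body or within 10 kb, against 35.3% of all coding genes. The lists were assembled with results of these data known, so the counts are descriptions. Of 200 such peaks linked to these genes, 151 (75.5%) overlapped pool C and 1 overlapped pool D, near Olig1. A promoter peak of this kind was present at 21 of the 131 genes, against 7.55% of all coding genes. For 7 of them no replicated peak lay at the promoter, against 1.19% of all coding genes: C1qa, C1qb, Ctss, Siglech, Lhfpl3, Pdgfra and Notch3. A promoter peak lay within 1 kb of any TSS of the gene, which can be a start inside the gene.

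**Figure D4:**
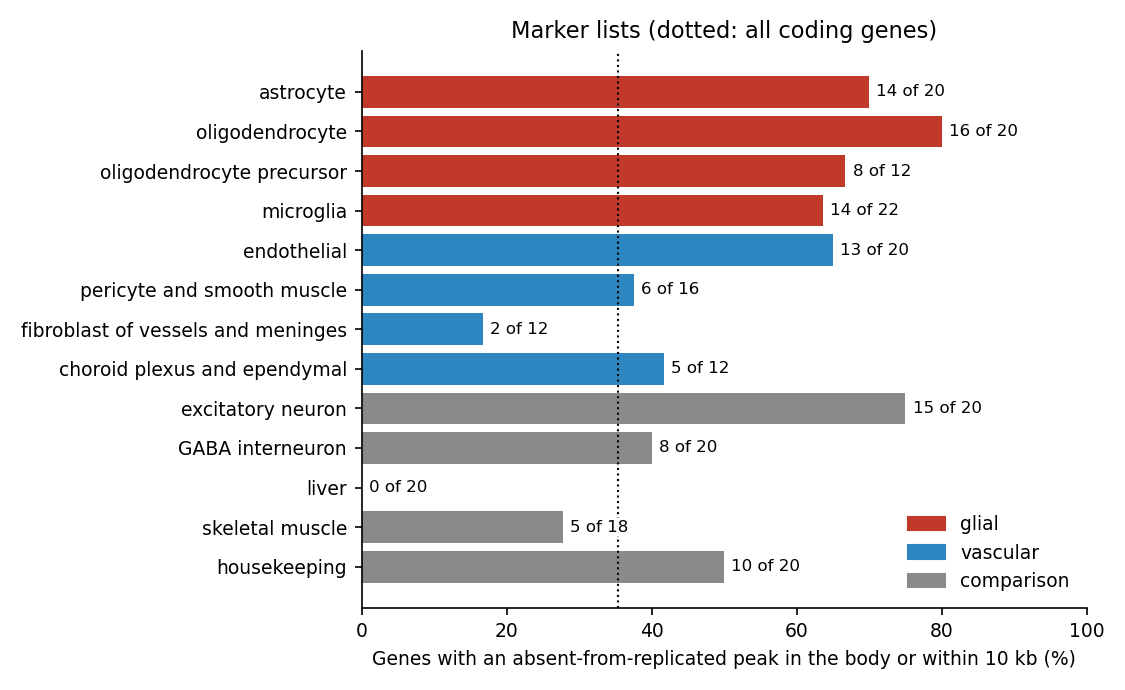
Share of genes (%) in each list with a pooled-list peak absent from the replicated list in the gene body or within 10 kb, with counts beside the bars; the dotted line marks all coding genes (35.3%). Oligodendrocyte (80.0%), excitatory neuron (75.0%) and astrocyte (70.0%) lists lie highest, and fibroblast (16.7%) and liver (0 of 20) lowest.

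Among 20 astrocyte genes 14 had a peak, and all 20 had a replicated promoter peak. Promoter peaks lay at Ndrg2 (signal 3.354), Atp1b2, a sodium pump subunit gene (3.159), Fgfr3 (3.123), Gfap, the astrocyte filament gene (2.823), and Slc1a3, a glutamate transporter gene (2.3). The middle of the peak lay 4347 bp downstream of the main TSS at Ndrg2, 10318 bp at Fgfr3 and 58034 bp at Slc1a3. At Gfap it lay 326 bp downstream and at Atp1b2 475 bp upstream. Away from the promoters of the linked genes the highest were at Sparcl1 (4.508), Aldh1l1 (4.164), Slc4a4, a bicarbonate transporter gene (3.817, with 21 peaks), and Slc1a2, the main astrocyte glutamate transporter gene (3.701, with 9). Each of these genes also held replicated peaks, with 64 at Slc4a4 and 35 at Slc1a2.

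For oligodendrocytes, 16 of 20 genes had a peak and 20 of 20 had a replicated promoter peak. A promoter peak was found at a TSS of Fa2h, which hydroxylates myelin lipids (3.123), with its middle 27781 bp downstream of the main TSS. Others were linked to Mbp, which encodes myelin basic protein (4.395, 8 peaks beside 27 replicated ones), and to Sox10 (3.45) and Cnp (3.354). Among oligodendrocyte precursor genes 8 of 12 had a peak. Lhfpl3 (2.705) and Pdgfra, the growth factor receptor that marks these cells (2.429), had promoter peaks and no replicated promoter peak. The middle of the peak lay 142 bp downstream of the main TSS at Lhfpl3 and 979 bp downstream at Pdgfra. Pdgfra was in neither pool list and its nearest replicated peak lay 46298 bp away. Tnr, an extracellular matrix gene, had 19 peaks (highest 4.164) beside 58 replicated ones. The highest signal was 3.586 at Pcdh15 and 3.089 at Cspg4.

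Of the 7 genes whose promoter held an absent peak and no replicated one, 4 were among the 22 microglial genes and 2 among the 12 precursor genes. The share over all coding genes was 1.19%. In the interneuron comparison list 4 of 20 genes had an absent peak at the promoter, and 2 of these had no replicated one. Of the microglial genes 14 had a peak, 7 had one at the promoter, and 14 had a replicated promoter peak. The complement gene C1qa had a signal of 3.47 (378 bp, fully in pool C, 5363 bp from a replicated peak), and its neighbour C1qb 2.66. C1qc was linked to both of these peaks. Ctss, a lysosomal protease gene, had 3.586, with 57.6% of its peak in pool C, and Siglech, a lectin gene, 2.892. Gpr34 (3.47), Cx3cr1, the fractalkine receptor gene (3.239, in neither list), and Csf1r, the receptor microglia need to survive (2.37), had replicated promoter peaks too. The middle of the absent peak lay 201 bp downstream of the main TSS at Gpr34, 2540 bp at Cx3cr1 and 3871 bp at Csf1r. Selplg (4.511), the receptor gene P2ry12 (3.701) and the lineage factor gene Spi1 (3.673) had peaks away from their own promoters.

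Of the 4 vascular lists, the endothelial one had the highest share of genes with a peak. Of its 20 genes 13 had one, and 18 had a replicated promoter peak. Promoter peaks lay at Slco1a4, a transporter gene of the blood-brain barrier (3.354), Cldn5, its tight junction claudin gene (3.339), and Egfl7 (2.429). The middle of the peak lay 9809 bp downstream of the main TSS at Slco1a4, 2062 bp downstream at Egfl7 and 1406 bp upstream at Cldn5. Ocln, another tight junction gene (4.395), the lipid transporter gene Mfsd2a (3.701), Erg (3.586) and the VEGF receptor gene Kdr (3.47) had peaks elsewhere. Of 16 pericyte and smooth muscle genes 6 had a peak and 5 had a replicated promoter peak. Notch3, the Notch receptor gene of mural cells, had 5 peaks, one at its promoter (3.123), and Pdgfrb had a promoter peak (3.007). Acta2 was linked through the wide Stambpl1 promoter peak (3.45), Tagln had 3.273 and Vtn 2.504. Fibroblast genes had a peak at 2 of 12, Dcn (2.776) and Pdgfra, and choroid plexus and ependymal genes at 5 of 12, including Folr1 (4.048), Foxj1, a regulator of cilia (3.586), Kl (3.116) and Rarres2 (2.771).

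The share in the excitatory neuron list lay within the range of the glial lists, and the other comparison lists were lower. Excitatory neuron genes had a peak at 15 of 20 (75.0%), interneuron genes at 8 of 20, housekeeping genes at 10 of 20, skeletal muscle genes at 5 of 18 and liver genes at 0 of 20. The median gene length was 18.4 kb in the astrocyte list, 17.0 kb in oligodendrocytes, 22.5 kb in their precursors and 15.5 kb in microglia. It was 44.2 kb in the endothelial list, 31.6 kb in pericytes, 32.4 kb in fibroblasts and 11.5 kb in choroid plexus. Among comparison lists it was 91.8 kb in excitatory neurons, 13.6 kb in interneurons, 10.9 kb in housekeeping genes, 15.4 kb in skeletal muscle and 9.98 kb in liver. Over all coding genes it was 17.4 kb. The part of gene length in the lists' shares was not tested. As a share of all linked peaks, replicated peaks included, the absent peaks made up 25.0% in the microglia and the choroid plexus lists, 23.9% in pericytes, 21.4% in oligodendrocyte precursors, 20.5% in astrocytes, 20.1% in oligodendrocytes, 19.0% in endothelium and 7.41% in fibroblasts. Among comparison lists the share was 24.0% in interneurons, 20.1% in excitatory neurons, 18.5% in housekeeping genes, 14.3% in skeletal muscle and 0 in liver, and over all coding genes it was 17.8%.

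For letters without a CpG the motif shares lay close together in the absent peaks and the other pooled-list peaks. In 300 bp windows at the summit, on both strands, TGANTCA (AP-1) was present in 9.65% of the absent peaks and 8.4% of the others, GAGGAAGT (PU.1) in 2.13% of the absent peaks and 1.88% of the others, ACAATGG (SOX) in 4.09% of the absent peaks and 3.68% of the others and TTGGCA (NFI) in 17.7% of the absent peaks and 16.1% of the others. CAGCTG (E-box) was in 18.8% of the absent peaks and 18.9% of the others, GGAATG (TEAD) in 16.3% of the absent peaks and 15.9% of the others, GTTGCCATG (RFX) in 0.428% of the absent peaks and 0.449% of the others and CTATTTATA (MEF2) in 0.428% of the absent peaks and 0.375% of the others. The letters with a CpG were less frequent: CCGGAAGT (ETS) in 0.268% of the absent peaks and 0.742% of the others, CAGGGGGCG (CTCF core) in 0.0925% of the absent peaks and 0.351% of the others, GGGGCGGGG (SP) in 0.638% of the absent peaks and 1.72% of the others and TGACGTCA (CRE) in 0.195% of the absent peaks and 0.3% of the others. CpG-rich windows differ in the same direction (2.76% of the absent peaks, 15.5% of the others), and their part in the motif shares was not tested. Of the 12 motifs, 6 had a higher share in the absent peaks, and a match describes letters, not binding.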

How the data were processed

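H3K27ac ChIP-seq peaks were mapped by the authors on build mm10 (GRCm38), per the labels. They deposited 4 narrowPeak lists, made from filtered alignments of pools C and D, per the samples' descriptive text. No source used here names the aligner or the caller of the peaks. The deposited signal per peak is the authors' value, and how they scaled it is unknown; the deposited score was not used in results. The −log10 q values (adjusted p-values of the caller) were deposited by the authors. Summits were deposited as an offset in bp.

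Pooled-list peaks without 1 bp of overlap with a replicated peak (the absent peaks) were taken with Python 3.11.15 (numpy 2.4.6, pandas 2.3.3, pysam 0.24.0, scipy 1.17.1, matplotlib 3.10.9). Promoters were 1 kb around a TSS of GENCODE M21, and genes were linked within 10 kb. The overlap code was tested on simulated data. Peaks are not replicates and the files used here give no values per sample, so no test was made and intervals cover counting only. Samples were not compared, as there is 1 group. The absent peaks and gene lists were chosen with earlier results of these data known. Named genes were the list genes with an absent peak at the promoter and up to 4 more per list by signal, those at the 15 strongest, 10 widest and 10 farthest autosomal absent peaks, and the 10 strongest promoters without a replicated peak. Any other gene was named after its values were seen. The set of like signal was chosen after seeing the data. Alternatives are listed in the closing section. Strain differences from the reference were not analysed here. Some genes that this rule takes are not reported here.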

Additional observations from a re-analysis of the deposited data

How the results depend on the processing

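A minimum −log10 q of 5 left 10257 peaks, and keeping those above the median signal left 9932. Under these settings, in this order, pool C overlap was 83.9% and 83.5%, pool D overlap 0.702% and 0.745%, the promoter share 13.6% and 13.3%, the median distance 726 and 757.5 bp, and the genes with no replicated promoter peak 168 and 164. Asking for 50% of the peak to be covered gave 68.9% in pool C and 0.686% in pool D, and a reciprocal 50% gave 57.8% and 0.657%. The promoter share was 8.25% with a 500 bp TSS window, 21.6% with 2.5 kb, 8.92% with coding TSSs and 10.5% by summit. The median distance between summits was 2119 bp, and 21 glial and vascular genes had a peak within 1 kb of a TSS. With a pool left out, the other pool's list replaces the pooled list. The ranges were then 313 to 19619 peaks, 9.9 to 12.1% at promoters, 1278 to 1864 bp, 5 to 294 genes with no replicated promoter peak and 0 to 80 glial and vascular genes. Without pool C, 5.11% of the absent peaks of the pool D list overlapped pool C. Without pool D, 0.133% of those of the pool C list overlapped pool D. The low end of each count is the pool D list, with 313 peaks. A bound of under 50% coverage in place of 1 bp could change none of these values, as no pooled-list peak was partly covered by a replicated one. Of 84 single motif shares under other settings, 25 left the 95% interval of the reported share and 59 stayed within it. All 12 motifs left it with the 500 bp window, which contains the 300 bp window, so its shares cannot be lower. Most of the remaining shifts came with pool C left out, on 313 peaks. The cause of the other shifts was not tested. No paired analysis was possible because the samples form 1 group. Depth is unknown, so a region with no peak is one not detected in these lists.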
